A study of Homo sapiens with 4 samples.

Results

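The genes of this report handle the surplus of cellular cholesterol. They are the liver X receptors (LXRs) NR1H2 and NR1H3, their partner RXRA, the exporters ABCA1, ABCG1 and ABCG4, the acceptor apolipoprotein APOE, the ubiquitin ligase MYLIP, the esterifying enzyme SOAT1 and the caveola protein CAV1. They were measured in U87MG, an established human glioblastoma cell line, on 4 Affymetrix Human Gene 1.0 ST arrays. Cells transfected with a siRNA against CASP2, which codes for the cysteine protease caspase-2, gave 2 arrays, and cells transfected with a control siRNA gave 2, which the labels call biological replicates. The labels name Dharmacon as the supplier of the oligos, and the methods of the study list from that supplier 1 oligo against CASP2 and 1 control that is a mutated form of it. If the arrays used this pair, which the labels do not state, each group rests on 1 oligo. All arrays are of 1 cell line, and no untransfected cells are among them. Members were found by gene name: a probe set, the group of short probes that reads 1 gene, was taken where the platform annotation gave it that 1 gene symbol. This found 9 of the 10 genes, each with 1 probe set, among 32321 probe sets in all. NR1H2 has no probe set of that 1 symbol in the annotation used here and was not analysed.

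LXRs are nuclear receptors that sense oxysterols, the oxidized forms of cholesterol that build up when a cell holds too much of it. With RXR as partner they bind paired half-sites in DNA, and ligand turns the pair into an activator of genes that carry cholesterol out of the cell, among them ABCA1, ABCG1 and APOE. LXR also induces MYLIP, which marks the LDL receptor for degradation and so limits uptake, while SOAT1 converts the cholesterol that stays behind into esters for lipid droplets. In the brain, astrocytes make most of the APOE that carries cholesterol between cells. The comparison asked whether the LXR targets moved together when CASP2 was silenced.

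The upstream promoter of ABCA1 is shown because it was the only member promoter in which either motif searched for was found. The sequence covers the 250 bases before the transcription start, chr9:104928156-104928405 on the minus strand of GRCh38.p14, and is taken from RefSeq. The capitals mark, from the 5′ end, the E-box and the DR4 match.
ABCA1 upstream: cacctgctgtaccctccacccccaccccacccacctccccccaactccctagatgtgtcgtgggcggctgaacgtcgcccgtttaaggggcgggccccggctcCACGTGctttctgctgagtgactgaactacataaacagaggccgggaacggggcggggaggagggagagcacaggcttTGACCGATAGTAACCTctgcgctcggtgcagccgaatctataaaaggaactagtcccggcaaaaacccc
DR4 as searched: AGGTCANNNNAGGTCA
DR4 match in ABCA1: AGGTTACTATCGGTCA
A DR4 is a direct repeat of the half-site AGGTCA with 4 bases between, the arrangement that LXR and RXR bind as a pair. The search allowed up to 2 mismatches over both half-sites on either strand, in windows of 250 bases before to 50 after each start. The ABCA1 match lies at bases -69 to -54 from the start, with 2 mismatches, and is written here on the strand that reads opposite to the gene. The E-box CACGTG, a hexamer bound by basic helix-loop-helix factors, lies at bases -147 to -142, and neither motif overlaps the other. Of the 18 member windows, which belong to 9 genes including NR1H2, this 1 held a match to either motif, beside 2.34% of all 35116 promoter windows for DR4 and 7.26% for the E-box. ABCG1 is not among the genes of that table, and sequence outside these windows was not searched.

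The arrays were checked first on the silenced gene and on the cell line. CASP2 itself had log2 values of 8.79 and 8.52 on the CASP2 siRNA arrays, against 10.74 and 10.69 on the control siRNA arrays, a log2 fold change of -2.06 with a 95% confidence interval of -2.40 to -1.72, although its adjusted p from limma was 0.9999. In bulk RNA, fewer cells that express a gene and less of its RNA in each cell cannot be told apart. The standard deviation of the difference between arrays over all probe sets was 0.348 between the CASP2 siRNA arrays, 0.205 between the control siRNA arrays and 0.238 to 0.290 across the groups, so that the CASP2 siRNA arrays stood farthest apart. By the marker lists, the mesenchymal genes VIM, CD44 and FN1 lay at percentiles 99.6, 99.5 and 97.6 of all probe sets by mean value, whereas the glial genes GFAP, S100B, SOX2, OLIG2 and NES lay between percentiles 15.8 and 54.0. Of markers of other cell types, the neuronal RBFOX3, SYT1 and SNAP25 lay at percentiles 49.5, 57.4 and 73.2, the endothelial PECAM1 and CDH5 at 43.0 and 39.3, and the hepatocyte products ALB and APOA2 at 13.6 and 45.3, a range that overlaps that of the glial genes. PTPRC, the pan-leukocyte marker, was at percentile 13.6. CD68, a lysosomal protein used as a macrophage marker, was at percentile 98.3 while CSF1R and AIF1 of the same class were below the median. None of these markers had a limma p under 0.05 between the groups. The values come with no detection calls here, so a value is placed by its percentile among all probe sets, and the brightness of one probe set was not set against that of another as an amount of RNA.

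No member passed the test used, limma on the whole table, in which each had a Benjamini-Hochberg adjusted p of 0.9999. At an adjusted p of 0.05, 0 of all probe sets passed (0%), while 979 (3.03%) had an unadjusted p under 0.05 and so did 0 of the 9 members. With the trend and robust options of limma, SOAT1 was the only member with one, and 0 of all probe sets had an adjusted p under 0.05. The share of all probe sets with an unadjusted p under 0.05 was not counted for these options. The value is therefore not read as a result about SOAT1. The looser thresholds that the study used, 1.5 fold together with an unadjusted p under 0.05, called 107 probe sets (0.331%) higher and 117 (0.362%) lower, and no member among them. These counts were 398 and 592 without CASP2 siRNA replicate 1, 414 and 224 without replicate 2, and 183 and 196 without control siRNA replicate 1. In each of these fits 1 group has a single array, the spread comes from the pair of the other group, and the lone array is assumed to vary like that pair. With so few arrays an exact two-sided permutation test reaches 0.333 at best, so single genes were read by their arrays and intervals. For 8 of the 9 members the whole interval lay within a 1.5-fold change in either direction, as it did for 24469 of the 32321 probe sets, and ABCG4 was the exception.

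**Figure D1:**
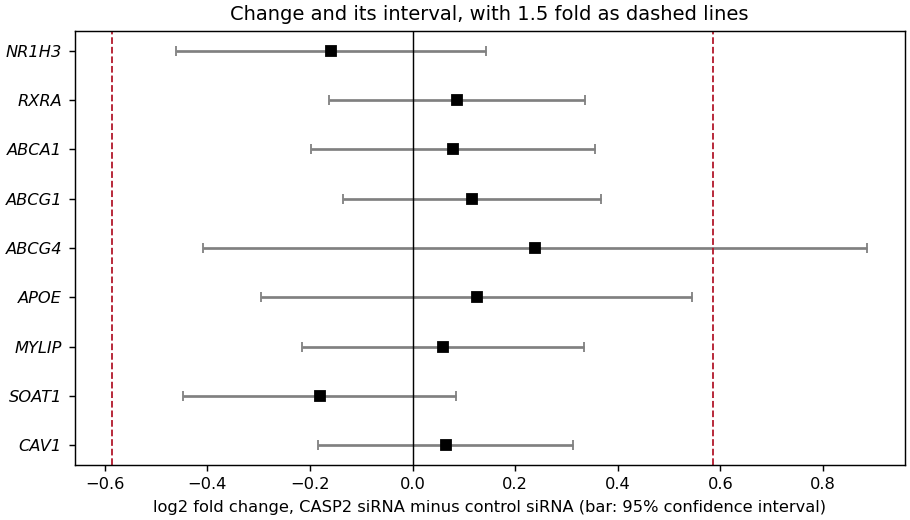
Log2 difference of each member between CASP2 siRNA and control siRNA arrays (x axis; squares) with its 95% confidence interval from limma (bars), 1 probe set per gene (y axis); dashed lines mark a 1.5-fold change. Every interval holds 0, and that of ABCG4, up to 0.89, alone passes a dashed line.

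NR1H3, which codes for LXRα, had log2 values of 6.68 and 6.53 on the CASP2 siRNA arrays, against 6.69 and 6.84 on the control siRNA arrays. Both CASP2 siRNA values lay below both control values, the nearer by only 0.010. The means were 6.61 ± 0.11 in CASP2 siRNA cells and 6.77 ± 0.10 in control siRNA cells (SD, n = 2 each). CASP2 siRNA cells thus stood at -0.16 on the log2 scale (SE 0.11, interval -0.46 to 0.14), on the other side of 0 from ABCA1, ABCG1, APOE and MYLIP. The probe set lay at percentile 55.6 of all probe sets. In human cells NR1H3 is itself known as an LXR target.

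RXRA, the retinoid X receptor with which the LXRs bind DNA, had 9.14 and 9.23 on the CASP2 siRNA arrays, against 9.11 and 9.09 on the control siRNA arrays. The groups did not overlap, with a gap of 0.030 between the nearest arrays. Its log2 fold change was 0.087 (SE 0.094, interval -0.16 to 0.34), and its probe set lay at percentile 79.8. Thus the receptor chain measured here held 1 gene below its control level and 1 above it, neither past a test.

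**Figure D2:**
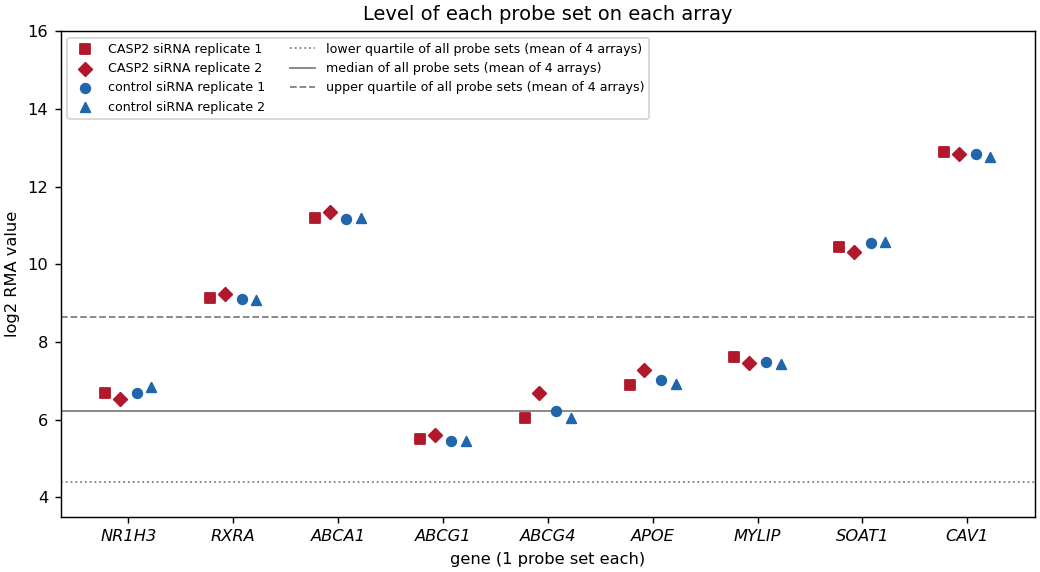
Log2 RMA value (y axis) of each member's probe set (x axis) on each of the 4 arrays; red squares and diamonds are CASP2 siRNA replicates 1 and 2, blue circles and triangles control siRNA replicates 1 and 2, and grey lines give the quartiles of all probe sets. CAV1 is brightest at 12.76 to 12.89 and ABCG1 dimmest at 5.44 to 5.60, and the widest span of the 4 arrays within a gene is 0.65, for ABCG4.

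ABCA1, the transporter that passes cholesterol and phospholipid to lipid-poor apolipoproteins, was the exporter with the brightest probe set, at percentile 94.9. It had 11.18 and 11.34 on the CASP2 siRNA arrays, against 11.17 and 11.19 on the control siRNA arrays. Replicate 1 of the CASP2 siRNA lay between the control arrays, and replicate 2 lay above both, 0.16 over the control mean. ABCA1 had a log2 fold change of 0.079 (SE 0.10), with an interval of -0.20 to 0.36, or 0.872-fold to 1.28-fold. Without CASP2 siRNA replicate 2 it was -0.0012, so the direction of this gene rested on that array. ABCA1 was the only member with a DR4 match in the promoter windows searched.

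ABCG1, which loads cholesterol onto lipoprotein particles that already hold lipid, had 5.51 and 5.60 on the CASP2 siRNA arrays, against 5.44 and 5.44 on the control siRNA arrays. Both CASP2 siRNA values lay above both controls, by 0.065 or more. The control arrays differed by 0.0041 and the CASP2 siRNA arrays by 0.096, and the groups were apart by 0.12 on the log2 scale (SE 0.094, interval -0.14 to 0.37). The probe set was the dimmest of the members, at percentile 40.4. When all probe sets were cut by mean value into 10 bins of equal size, the bin of ABCG1 had a median log2 fold change of 0.028. On the single arrays ABCG1 lay 0.067 above the control mean on CASP2 siRNA replicate 1 and 0.16 above it on replicate 2, against bin medians of -0.063 and 0.13.

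ABCG4, a close relative of ABCG1 with a role in sterol export from neural cells, had 6.04 and 6.69 on the CASP2 siRNA arrays, against 6.21 and 6.05 on the control siRNA arrays. Replicate 1 of the CASP2 siRNA was the lowest of the 4 values and replicate 2 the highest, so the groups overlapped. The log2 fold change of 0.24 (SE 0.24, interval -0.41 to 0.89) was the largest of the members and also the least certain. The CASP2 siRNA arrays differed by 0.65, a gap wider than that of 94.0% of probe sets. Without CASP2 siRNA replicate 2 the log2 fold change was -0.088, and without replicate 1 it was 0.57. Its probe set lay at percentile 50.4.

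APOE, the apolipoprotein onto which brain cells load exported cholesterol, had 6.90 and 7.28 on the CASP2 siRNA arrays, against 7.01 and 6.93 on the control siRNA arrays. Again replicate 1 of the CASP2 siRNA was the lowest of the 4 and replicate 2 the highest. APOE differed between the groups by 0.13 on the log2 scale, with an SE of 0.16 and an interval of -0.29 to 0.55, and without CASP2 siRNA replicate 2 it was -0.065. The probe set lay at percentile 59.2. Relative to the control mean, APOE lay at -0.065 on CASP2 siRNA replicate 1 and 0.32 on replicate 2. Its bin of level also holds ABCG4, at -0.088 and 0.57 on the same arrays, and NR1H3, at -0.082 and -0.24. The bin as a whole had medians of -0.052 on replicate 1 and 0.079 on replicate 2, so it was split between these arrays in the same direction as APOE and ABCG4. The part of this shift of the whole bin in the values of single genes was not tested.

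**Figure D3:**
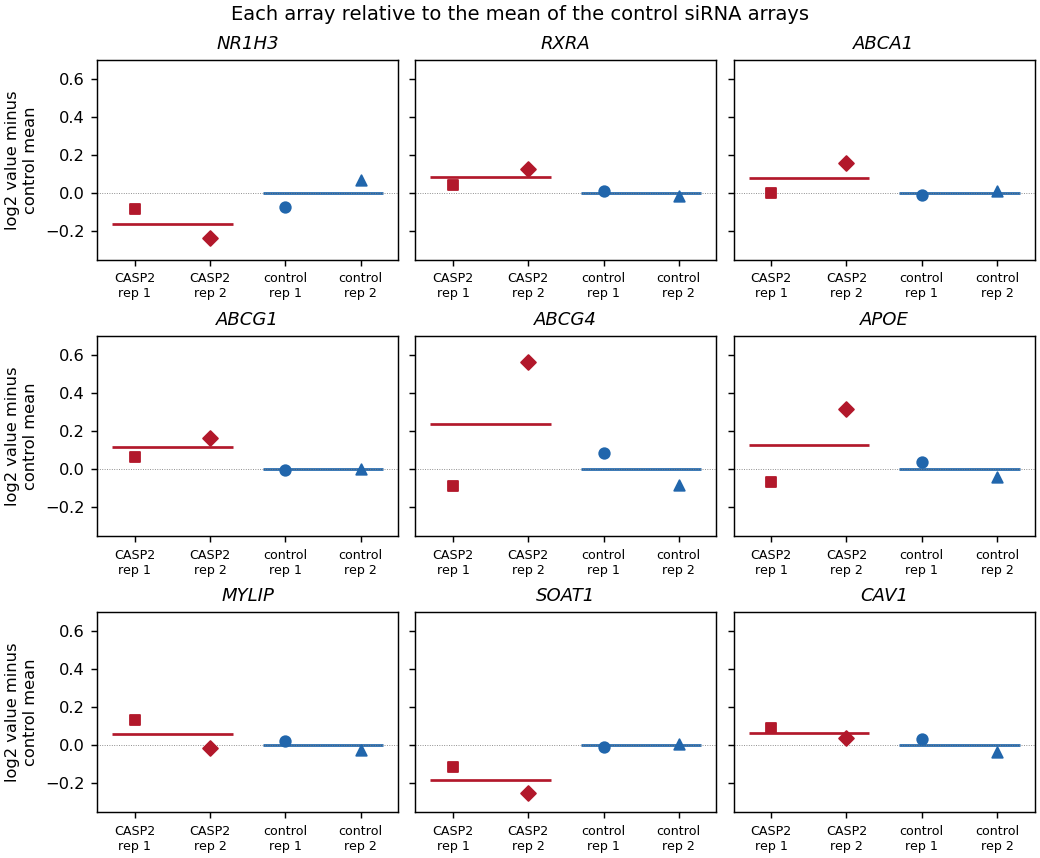
Log2 distance of every array from the control siRNA mean (y axis), 1 panel per member; points are single arrays (CASP2 siRNA in red, control siRNA in blue) and horizontal lines are group means. CASP2 siRNA replicate 2 stands highest for ABCG4 (0.57), APOE (0.32), ABCG1 and ABCA1 (0.16 each) and RXRA (0.13), and lowest for SOAT1 (-0.25) and NR1H3 (-0.24).

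MYLIP, also named IDOL, the ligase that sends lipoprotein receptors to degradation, had 7.60 and 7.45 on the CASP2 siRNA arrays, against 7.49 and 7.44 on the control siRNA arrays. Here it was replicate 1 of the CASP2 siRNA that stood above the controls, while replicate 2 lay between them. MYLIP differed between the groups by 0.059 on the log2 scale, with an SE of 0.10 and an interval of -0.22 to 0.33, and without CASP2 siRNA replicate 1 it was -0.016. Its probe set lay at percentile 63.8.

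SOAT1, the acyl-CoA:cholesterol acyltransferase that makes cholesteryl esters, had 10.45 and 10.32 on the CASP2 siRNA arrays, against 10.56 and 10.57 on the control siRNA arrays. Both CASP2 siRNA values lay below both controls, by at least 0.11, whereas the control arrays differed by 0.014. The means were 10.39 ± 0.097 in CASP2 siRNA cells and 10.57 ± 0.0098 in control siRNA cells (SD, n = 2 each). SOAT1 was thus 1.13-fold lower, at -0.18 on the log2 scale (SE 0.10, interval -0.45 to 0.085), and leaving out any 1 array gave -0.25 to -0.11. Among all probe sets, 79.9% had a smaller change in either direction. Its bin of level, the brightest, had a median log2 fold change of -0.0066, and medians on the single CASP2 siRNA arrays of 0.012 and -0.025 from the control mean.

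CAV1, the coat protein of caveolae, the cholesterol-rich pits of the plasma membrane, had the brightest probe set of the members, at percentile 99.4. It had 12.89 and 12.84 on the CASP2 siRNA arrays, against 12.83 and 12.76 on the control siRNA arrays. The groups did not overlap, but the nearest arrays were 0.0037 apart. CAV1 differed between the groups by 0.065 on the log2 scale, with an SE of 0.093 and an interval of -0.18 to 0.31, and the bin of the brightest probe sets, which it shares with SOAT1 and ABCA1, had a median of -0.0066.

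The LXR targets ABCA1, ABCG1, APOE and MYLIP lay on the same side of the control level by group means but on neither CASP2 siRNA array taken alone. By group means, 4 of the 4 lay above 0, with log2 fold changes between 0.059 and 0.13, as did 50.7% of all probe sets. NR1H3, a member also known as an LXR target, lay on the other side at -0.16. On CASP2 siRNA replicate 1 alone, 2 of the 4 lay above the control mean (ABCG1 and MYLIP), and on replicate 2 alone 3 of the 4 did (ABCA1, ABCG1 and APOE). ABCG1 was the only one above both controls on both arrays.

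Over the 9 members, 7 had a log2 fold change above 0 and 2 below, with a median of 0.079 beside 0.0022 over all probe sets. The group arrays did not overlap for 3 members above (RXRA, ABCG1 and CAV1), where 14.5% of all probe sets did the same, and for 2 below (NR1H3 and SOAT1), where 15.1% did. Taken by single arrays, 4 of the 9 lay above the control mean on CASP2 siRNA replicate 1, with a median of -0.0012, and 6 of the 9 on replicate 2, with a median of 0.13. Without CASP2 siRNA replicate 2 the count above 0 was therefore 4 and not 7. In 8 of the 9 members the CASP2 siRNA arrays differed more from each other than the control arrays did, as was the case for 22661 of the 32321 probe sets. The median gap of the members was 0.15 between the CASP2 siRNA arrays and 0.051 between the control siRNA arrays, beside 0.18 and 0.087 over all probe sets.

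**Figure D4:**
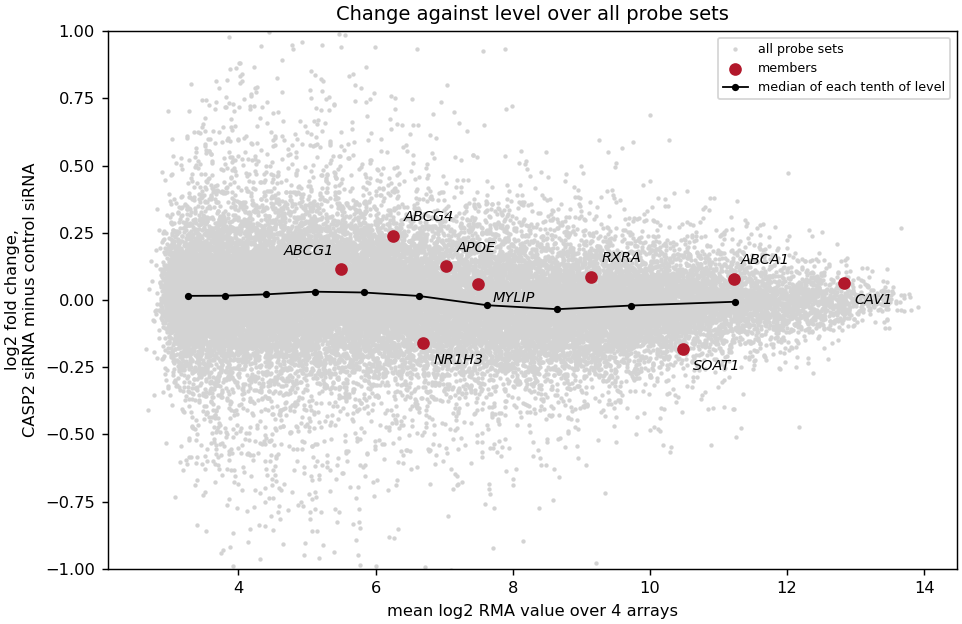
Log2 difference between CASP2 siRNA and control siRNA arrays (y axis) against the mean log2 value over the 4 arrays (x axis) for all probe sets (grey), the members (red) and the median of each of 10 bins of level (black); 49 probe sets lie beyond the y axis. The members lie inside the grey cloud, from -0.18 for SOAT1 to 0.24 for ABCG4, while the medians of the bins run between -0.034 and 0.031.

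Further genes of the pathway were read through 7 lists, each gene by its brightest probe set, and 62 of the 75 genes listed have one. No gene passed the adjusted test, 1 had an unadjusted limma p under 0.05 (3.03% of all probe sets), and none passed 1.5 fold. Of the 62, 36 lay above 0 and 26 below, with a median of 0.010. Leaving out single arrays put 30 to 32 of them above 0, with medians from -0.0035 without CASP2 siRNA replicate 2 to 0.019 without replicate 1.

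Of 15 measured other LXR targets, 7 lay above 0 and 8 below, with a median of -0.036. Without CASP2 siRNA replicate 2, 4 of the 15 lay above 0 and the median was -0.10, while without replicate 1 the median was -0.0087. MERTK, a receptor tyrosine kinase for the uptake of dying cells, had 5.01 and 5.13 on the CASP2 siRNA arrays, against 5.33 and 5.38 on the control siRNA arrays. Both values lay below both controls, and the log2 fold change of -0.28 (interval -0.55 to -0.018, limma adjusted p = 0.9999) was the only one in the lists with an interval that left out 0. Leaving out any 1 array gave values between -0.35 and -0.22, past an unadjusted p of 0.05 only without CASP2 siRNA replicate 2, and with the replicate number as a block it was not past it. EEPD1, an endonuclease-family protein, had -0.17 (-0.43 to 0.086). SCD, the desaturase that makes monounsaturated fatty acids, had -0.17 (-0.46 to 0.11), again with no overlap of the groups. Among further lipogenic targets, SREBF1, the gene of the transcription factor SREBP-1, was at 0.069 and FASN, fatty acid synthase, at 0.032. MLXIPL lay on the other side of 0, at -0.12, with overlapping groups. LPCAT3, a phospholipid-remodelling enzyme, lay above both controls at 0.13, and PLTP, the phospholipid transfer protein, below both at -0.036. ABCG5 also lay above both controls, at 0.14, with its probe set at percentile 26.4. APOC1, a neighbour of APOE in the genome, was at -0.037.

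Among RXR partners and coregulators, 7 of 11 lay above 0, with a median of 0.028. The median was -0.014 without CASP2 siRNA replicate 1, 0.093 without CASP2 siRNA replicate 2, 0.053 without control siRNA replicate 1 and 0.0057 without control siRNA replicate 2. TBL1XR1 and TBL1X, exchange factors of the NCoR corepressor complex, had 0.17 (-0.12 to 0.46) and 0.13 (-0.11 to 0.38), both without overlap of the groups. RXRG, the gamma form of RXR, had 0.21 (-0.16 to 0.58) at percentile 22. Of 8 enzymes that make or clear sterol ligands, 4 lay on each side of 0, with a median of -0.0062. CYP46A1, the cholesterol hydroxylase of neurons, had -0.14 (-0.64 to 0.36), CYP11A1, the side-chain cleavage enzyme, -0.11 (-0.46 to 0.24) and SULT2B1, a sterol sulfotransferase, 0.15 (-0.41 to 0.71). CH25H, an oxysterol-forming hydroxylase, was at -0.014. Without control siRNA replicate 2, 2 of the 8 lay above 0 and their median was -0.042, against -0.037 without control siRNA replicate 1. It was 0.083 without CASP2 siRNA replicate 1 and -0.065 without replicate 2.

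Of 11 other exporters, acceptors and lipoprotein factors, 7 lay above 0, with a median of 0.058, which was -0.019 without control siRNA replicate 1, 0.024 without control siRNA replicate 2 and 0.027 without CASP2 siRNA replicate 1. ABCA7, a relative of ABCA1, had 0.084 (-0.16 to 0.33), the apolipoprotein APOD 0.090 (-0.26 to 0.44) and the paraoxonase PON1 0.11 (-0.15 to 0.37), the last at percentile 14. CLU, the other main apolipoprotein of astrocytes, lay at percentile 95.8 and had a log2 fold change of -0.0013. Of 8 genes of cholesteryl ester storage and hydrolysis, 6 lay above 0, with a median of 0.017. Without CASP2 siRNA replicate 1 the median was 0.060, without CASP2 siRNA replicate 2 it was -0.0093 with 4 above 0, without control siRNA replicate 1 it was 0.058, and without control siRNA replicate 2 it was -0.011 with 4 above 0. LIPE, the hormone-sensitive lipase, had 0.18 (-0.15 to 0.51), SOAT2, the acyltransferase of liver and intestine, 0.15 (-0.26 to 0.55) and the carboxylesterase CES1 -0.11 (-0.66 to 0.44). SOAT2 thus lay on the other side of 0 from SOAT1, with overlapping groups, and its probe set lay at percentile 47.6. PLIN2, a lipid droplet coat protein, was at 0.011 and NCEH1, a neutral cholesteryl ester hydrolase, at 0.0049.

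Of 7 other caveola proteins, 4 lay above 0, with a median of 0.00039, and without control siRNA replicate 1 only 1 of the 7 lay above 0. Leaving out any 1 array put the median below 0, between -0.047 without CASP2 siRNA replicate 1 and -0.013 without control siRNA replicate 1. PACSIN2, which shapes the caveola neck, had 9.90 and 9.69 on the CASP2 siRNA arrays, against 10.02 and 10.04 on the control siRNA arrays, a log2 fold change of -0.23 (-0.54 to 0.073) that ran from -0.34 to -0.12 with single arrays left out. CAVIN4, the muscle cavin, had -0.15 (-0.57 to 0.27) and CAVIN2 0.081 (-0.25 to 0.41), while CAVIN1, which builds caveolae together with CAV1, was at 0.0092. Of the receptors that MYLIP targets, 2 had a probe set of their own. VLDLR had 9.89 and 10.15 on the CASP2 siRNA arrays, against 9.69 and 9.84 on the control siRNA arrays, and both values lay above both controls. Its log2 fold change was 0.26 (-0.097 to 0.61), ranging from 0.13 to 0.38 with single arrays left out. LRP8, the APOE receptor 2, had -0.043 (-0.28 to 0.19), with both CASP2 siRNA values below both controls. The median of this pair, 0.11, was 0.16 without CASP2 siRNA replicate 1 and 0.050 without replicate 2.

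**Figure D5:**
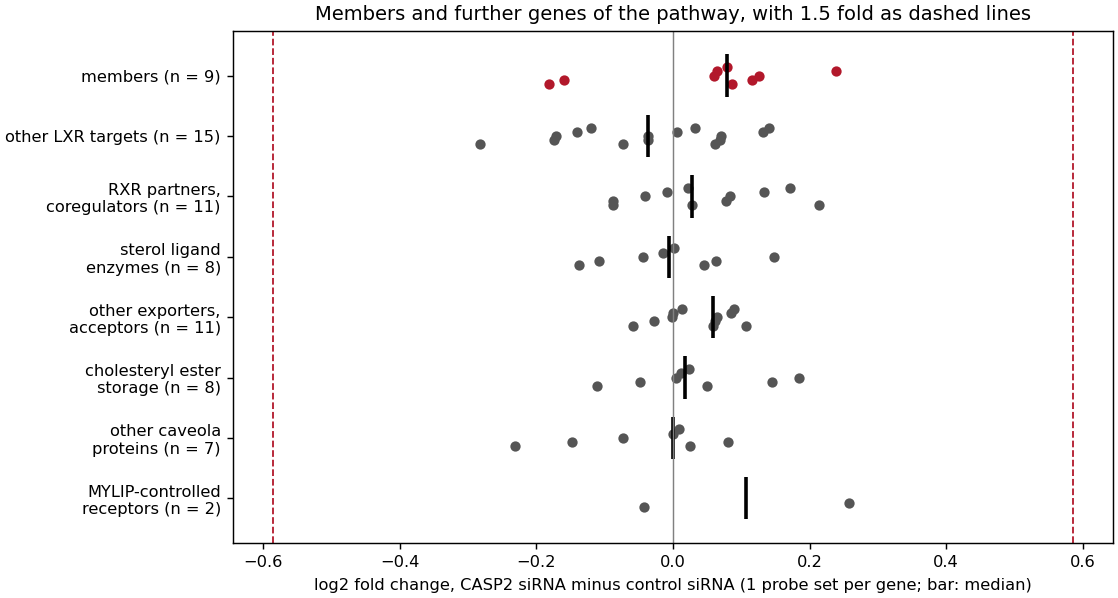
Log2 difference between CASP2 siRNA and control siRNA arrays (x axis) for the 9 members (red) and for the measured genes of the 7 further lists (grey), by list (y axis); 1 point is 1 gene by its brightest probe set, black bars are list medians and dashed lines mark 1.5 fold. Points lie on both sides of 0 in each list, and the medians run from -0.036 for other LXR targets to 0.11 for the pair of MYLIP-controlled receptors.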

How the data were processed

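Total RNA of U87MG cells was hybridized to 4 Affymetrix Human Gene 1.0 ST arrays, 2 per siRNA. The authors normalized by RMA (version not given in the sources used here) to log2 values, which they deposited, 1 per probe set and array. RMA equalizes probe distributions between arrays, which hides a shift of all genes, and compresses folds near background. Symbols came from the platform annotation, updated by gene ID for 19128 of 19158 probe sets with 1 symbol; 1388 have several and 11775 none.

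All probe sets were fitted with limma 3.58.1 (lmFit, eBayes) in R 4.3.3, CASP2 siRNA against control siRNA, two-sided, and the 32321 p-values were adjusted together by Benjamini-Hochberg. There were 2 residual and 2.47 prior degrees of freedom. Intervals are 95% intervals and cover the spread between these arrays only, which may be partly technical. The array number limits precision. The fit was tested on simulated data. The fit's alternatives were the methods' t-test (pooled standard deviation raised to its median), trend and robust options, quantile normalization, median centring, linear means, leaving out dim probe sets (below the lower quartile of every array), the replicate number as a block and each array left out.

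Named were all members, CASP2, the markers and, in each list, the 3 genes with the smallest p. Single genes were also named for their role after their values were seen (SREBF1, FASN, MLXIPL, LPCAT3, PLTP, APOC1, CH25H, CLU, PLIN2, NCEH1, CAVIN1). ABCG5 was also named after its values were seen, because its groups did not overlap. Members and lists were chosen with earlier results of these data known. Percentiles are ranks by mean value among all probe sets.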

Additional observations from a re-analysis of the deposited data

How the results depend on the processing

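Of the 9 members, 5 (NR1H3, ABCG1, SOAT1, CAV1 and RXRA) kept their direction under the 7 alternatives that can move a fold change. These 5 are the members whose groups did not overlap. Leaving out 1 array could therefore not turn their direction and is no test of it. The direction of the other 4 members turned when 1 CASP2 siRNA array was left out. It turned under none of the other 3 alternatives (quantile normalization, median centring and linear means). Median centring shifts all members by the same amount. The methods' t-test, the trend and robust options and the replicate block leave every fold change as it is and change only its p. Leaving out single arrays gave ABCA1 log2 fold changes of -0.0012 to 0.16, ABCG4 of -0.088 to 0.57, APOE of -0.065 to 0.32 and MYLIP of -0.016 to 0.13, and put between 4 and 7 members above 0. The lowest values came without CASP2 siRNA replicate 2, and for MYLIP without replicate 1. No alternative gave a probe set with an adjusted p under 0.05. Past 1.5 fold with an unadjusted p under 0.05, the methods' t-test called 35 probe sets higher and 37 lower, and limma without single arrays 118 to 414 higher and 157 to 592 lower, the largest counts coming without a CASP2 siRNA array. The cause was not tested. Same-numbered arrays did not deviate together (correlation 0.020 over probe sets, across which values are not independent). They share only a number, and with the replicate block the counts were 142 and 160. For CASP2, MERTK, VLDLR and PACSIN2, quantile normalization, median centring and leaving out single arrays were chosen after seeing the data. They left the direction as it was. The groups of these genes did not overlap, so leaving out 1 array could not turn their direction and is no test of it. Leaving out arrays for all further lists together was also added after seeing the data. The number of arrays limits the precision to the intervals given.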
